A study of Mus musculus with 48 samples.

Results

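Progenitor (Tprog) and terminal (Tterm) exhausted CD8 T cells from the tumours of young mice were compared by ATAC-seq, an assay in which a transposase cuts open chromatin and the sequenced fragments mark accessible sites. The comparison rests on 5 of the 48 libraries of the series, 2 of Tprog and 3 of Tterm, chosen by their names as control libraries of these states from young hosts, and it covered all 53868 peaks of the deposited table. All 5 libraries came from Cas9-expressing OT-1 CD8 T cells of CD45.1 donors, whose T cell receptor recognises an ovalbumin peptide. Each donor cell had received a guide RNA by lentivirus together with the fluorescent reporter ametrine. The guide group is named OTC control in the labels, which do not explain OTC. The cells had been transferred into hosts bearing B16-OVA melanoma, and were sorted from the tumours at day 15. The letter Y in the library names was read as young host and A as aged host; the labels give no age in months.

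Tprog cells were sorted as Slamf6+ Tim-3- and Tterm cells as Slamf6- Tim-3+, where Tim-3 is the product of Havcr2. Ttran cells, positive for both proteins, gave 3 more libraries of the same guide and hosts and are set beside the compared states below. Each library held 5000 to 50000 sorted cells pooled from several mice. Aged OTC libraries (2 Tprog, 2 Tterm) and young libraries with guides against Zfp219 or Dusp5 (2 Tprog and 3 Tterm each) gave the same contrast in cells that the young OTC comparison did not use.

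CD8 T cells that meet their antigen for long periods in a tumour take up a range of exhausted states. Progenitor cells keep the transcription factor TCF-1, encoded by Tcf7, can renew themselves and give rise to the other states, and are the cells that expand after checkpoint blockade. Terminal cells carry Tim-3 and CD39 (Entpd1), hold cytotoxic granule proteins and divide little. The states are known to differ in open chromatin as well as in RNA.

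The 2 Tprog libraries had 18493537 and 15520213 reads in peaks, and the 3 Tterm libraries had 20802933, 16737521 and 23362020. Replicates correlated at 0.961 to 0.978 (Pearson's r of log2 values across peaks, which are not independent replicates). A value is given below as normalized reads, meaning the reads of a peak divided by the size factor of its library. A fold change is on the log2(value + 1) scale, Tprog over Tterm, with its standard error (SE), and peaks are termed called where limma, fitted to all 48 libraries and all peaks, gave an adjusted p under 0.05. A value of a sorted pool cannot tell apart more cells with an open site and a more open site in each cell.

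The sorting markers differed as the gates would have them, which checks the labels and is not a finding. At Slamf6, a surface receptor of the SLAM family, 6 of 6 peaks were called, each higher in Tprog. At Havcr2, 5 of 5 peaks were higher in Tterm. At Tcf7, which was not part of the gate, 10 of 12 peaks were higher in Tprog and none was higher in Tterm. Over all peaks 26.5% were called, 13.9% higher in Tprog and 12.6% higher in Tterm. Peaks of the T cell identity genes were strong in both states: the 6 peaks of Cd8a summed to 3112 to 3285 normalized reads in Tprog and 2623 to 2711 in Tterm.

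The start sites of genes that marked the states carried the following letters. They are the 250 bases before the RefSeq transcription start (build GRCm38.p6), read 5′ to 3′ on the gene's strand, for the 2 sorting markers and for 3 granzymes whose start-site peaks were higher in Tterm. Capitals mark matches to the AP-1 letters TGANTCA or the RUNX letters TGTGGTT, on either strand.
Slamf6, chr1:171917212-171917461, plus strand: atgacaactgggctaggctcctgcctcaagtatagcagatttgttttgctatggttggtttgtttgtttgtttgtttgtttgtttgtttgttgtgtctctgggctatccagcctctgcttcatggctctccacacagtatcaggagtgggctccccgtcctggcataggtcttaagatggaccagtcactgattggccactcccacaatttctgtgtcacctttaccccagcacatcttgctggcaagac
Havcr2, chr11:46454681-46454930, plus strand: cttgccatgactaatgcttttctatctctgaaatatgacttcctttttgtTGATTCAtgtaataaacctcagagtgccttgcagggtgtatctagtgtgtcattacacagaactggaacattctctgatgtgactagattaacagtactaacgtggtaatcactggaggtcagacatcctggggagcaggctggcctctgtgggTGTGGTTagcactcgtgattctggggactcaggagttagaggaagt
Gzmb, chr14:56262335-56262584, minus strand: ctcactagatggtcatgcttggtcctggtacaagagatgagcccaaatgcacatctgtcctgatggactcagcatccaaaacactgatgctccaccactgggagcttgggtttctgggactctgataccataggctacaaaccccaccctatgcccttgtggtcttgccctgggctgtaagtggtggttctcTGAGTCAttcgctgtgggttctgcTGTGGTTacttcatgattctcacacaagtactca
Gzmc, chr14:56234658-56234907, minus strand: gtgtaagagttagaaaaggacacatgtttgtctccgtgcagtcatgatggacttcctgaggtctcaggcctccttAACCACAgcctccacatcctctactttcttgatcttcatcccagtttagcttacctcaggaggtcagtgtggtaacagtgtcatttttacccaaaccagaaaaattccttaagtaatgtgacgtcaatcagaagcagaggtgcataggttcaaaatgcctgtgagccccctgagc
Gzmf, chr14:56211408-56211657, minus strand: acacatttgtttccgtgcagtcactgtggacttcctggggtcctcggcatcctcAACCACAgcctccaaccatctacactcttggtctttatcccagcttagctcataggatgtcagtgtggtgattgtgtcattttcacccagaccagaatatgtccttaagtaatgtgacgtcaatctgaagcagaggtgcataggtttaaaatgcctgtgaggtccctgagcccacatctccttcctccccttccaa

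Havcr2 and Gzmb each held an AP-1 match and a RUNX match in these windows, and Gzmc and Gzmf each held a RUNX match. The window of Entpd1, whose start-site peak was also higher in Tterm, held neither and is not printed. These windows are therefore examples and do not stand for the start sites of either state. In an alignment of these windows Gzmc and Gzmf were identical at 88.8% of 223 aligned letters. The placement of reads between these near copies was not tested. A match is a description of letters and not a site.

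Accessibility differed widely between the states. Of 14279 called peaks, 7512 were higher in Tprog and 6767 were higher in Tterm, and the differences were larger on the Tprog side. The median called difference was 1.0 on the log2 scale for peaks higher in Tprog and 0.69 for peaks higher in Tterm. The former were also weaker, with a median of 128 normalized reads over the 5 libraries against 229. A difference of at least 2-fold was called at 3751 peaks higher in Tprog and 2187 higher in Tterm. At 4-fold or more the counts were 1195 and 416, and at 8-fold or more 285 and 50.

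**Figure D1:**
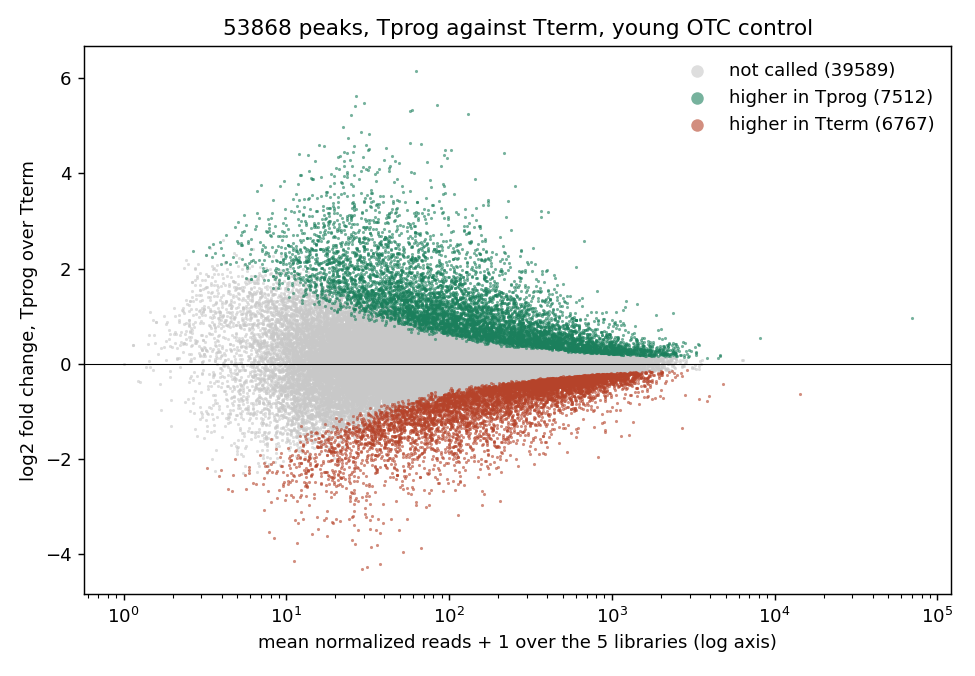
Each point is 1 of 53868 peaks, with the mean normalized reads plus 1 of the 5 libraries on a log axis and the log2 fold change of Tprog over Tterm on the vertical axis; green peaks were called higher in Tprog (7512) and red peaks higher in Tterm (6767). The green peaks reach 6.16, while the red peaks among those named in the text reach -3.96.

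The peaks higher in Tprog held 21.6% of the reads in peaks of Tprog and 14.5% of those of Tterm. The peaks higher in Tterm held 14.2% and 20.4%. The 5 libraries did not overlap between the states at 54.7% of all peaks. Without the second Tprog library 9518 peaks were called, and without the first 9777.

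Genes of transcription factors that keep the progenitor state had more peaks higher in Tprog than higher in Tterm. Of 178 peaks assigned to 11 such genes, 81 were higher in Tprog and 11 higher in Tterm, and the median log2 fold change was 0.58 against 0.01 over all peaks. These are 45.5% and 6.18%, against 13.9% and 12.6% of all peaks. Id3, an inhibitor of E proteins, had 7 of 7 peaks higher in Tprog, with log2 fold changes from 0.47 to 3.08. Bach2, a repressor that restrains effector genes, had 23 of 35 peaks higher in Tprog and none higher in Tterm. Foxp1, a factor of T cell quiescence, had 25 of 46 higher in Tprog and 2 higher in Tterm. Most of the 81 Tprog calls came from Foxp1, Bach2, Id3 and Tcf7.

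Within Tcf7 the sites differed in size rather than direction. A peak in the gene body at chr11:52268178-52268844 read 323 and 376 normalized reads in Tprog and 27.2, 51.1 and 27.0 in Tterm. The groups lay 3.34 apart on the log2 scale (SE 0.29, adjusted p = 2.32e-17). A second body peak, chr11:52273512-52275959, read 844 and 880 in Tprog and 86.6, 104 and 91.1 in Tterm, again with no overlap (log2 fold change 3.19, SE 0.18). The peak over the annotated starts, chr11:52281225-52284085, read 455 and 490 in Tprog against 138, 124 and 145 in Tterm. Its log2 fold change was 1.80 (SE 0.17, adjusted p = 5.85e-15), smaller than at the 2 body peaks. The strongest Tcf7 peak, chr11:52299318-52300198, 15935 bp from the gene, read 1226 and 1134 against 856, 819 and 893. Its log2 fold change was 0.46 (SE 0.08).

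Not every factor of the group behaved this way. Lef1, a relative of Tcf7, had 3 of 16 peaks higher in Tprog and 1 higher in Tterm. Its start-site peak read 860 and 842 in Tprog and 1001, 923 and 956 in Tterm, a difference that was not called (log2 fold change -0.17, SE 0.09, adjusted p = 0.13). Myb, which maintains stem-like CD8 cells, had 2 of 14 peaks higher in Tprog and 5 higher in Tterm. Foxo1 had 2 of 19 higher in each direction, and Bcl6 had 2 of 5 higher in Tprog and 1 higher in Tterm. Klf2 had 1 of 5 and Zeb1 2 of 10 higher in Tprog, with none higher in Tterm. Satb1, a chromatin organiser, had 4 of 9 peaks higher in Tprog with log2 fold changes from 1.06 to 3.44, while its strongest peak, at a start site, read 541 and 458 in Tprog and 465, 461 and 547 in Tterm and was not called (adjusted p = 0.908).

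As a list, surface and homing genes of progenitor cells leaned to Tprog as well. Of 137 peaks of 13 genes, 74 (54.0%) were higher in Tprog and 5 (3.65%) higher in Tterm, with a median log2 fold change of 0.61. Ccr7, the receptor that guides cells to lymph nodes, had 11 of 11 peaks higher in Tprog, from 0.31 to 3.73 on the log2 scale. Cxcr5, the receptor for the follicle chemokine, had 7 of 9. Il6ra, the receptor chain for interleukin 6, had 7 of 8, Tnfsf8, which encodes CD30 ligand, had 8 of 11, and Xcl1, a chemokine for cross-presenting dendritic cells, had 12 of 18. S1pr1, the receptor that lets lymphocytes leave tissue, had 9 of 15. Il6st had 3 of 14, and the 1 peak of Ltb was not called. The 5 Tterm calls came from Cd28 and Icos. Cd28 had 5 of 18 peaks higher in Tprog and 3 higher in Tterm, and Icos had 3 and 2 of 17.

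The peak of Ccr7 with the highest mean over the series, chr11:99154026-99155586, read 1187 and 1070 normalized reads in Tprog and 609, 650 and 567 in Tterm. Every Tprog value exceeded every Tterm value (log2 fold change 0.89, SE 0.09, adjusted p = 2.86e-14). Cxcr5 gave 930 and 928 in Tprog against 382, 363 and 386 in Tterm at chr9:44526245-44527374. The states were separated by more than the spread of their libraries (log2 fold change 1.3, SE 0.10, adjusted p = 2.73e-20). Il7r, the receptor chain for interleukin 7, had 1 of 5, and its strongest peak read 428 and 376 in Tprog and 430, 398 and 373 in Tterm, with overlapping values.

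At Slamf6 itself the peak just outside the gene, chr1:171915612-171916427, read 390 and 370 in Tprog and 155, 129 and 112 in Tterm. The start-site peak, chr1:171917325-171918757, whose letters are printed above in part, read 386 and 375 against 159, 158 and 183. Peaks further out differed more: chr1:171965523-171966661, 16565 bp beyond the gene, read 350 and 285 against 51.2, 66.8 and 41.1 (log2 fold change 2.58, SE 0.23). None of the 6 peaks overlapped between the states.

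**Figure D2:**
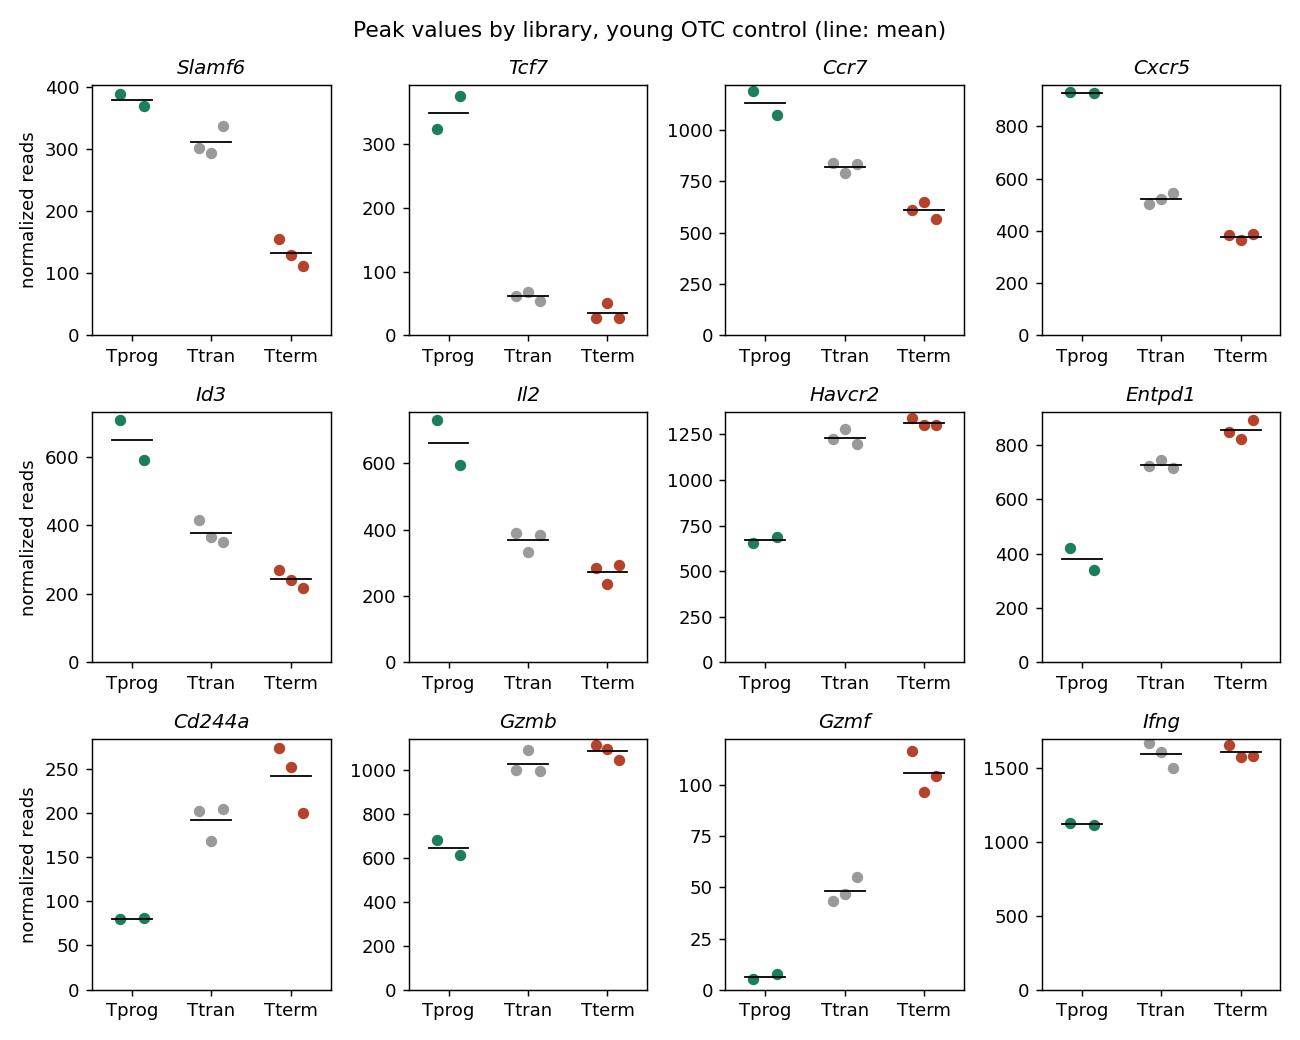
Normalized reads of 12 peaks in each young OTC library, with a linear axis from 0 in every panel, a point for each library and a line at the mean. For Slamf6, Havcr2, Ccr7, Cxcr5, Id3, Il2, Entpd1, Cd244a, Gzmb and Ifng the peak is that with the highest mean over the series, for Tcf7 that with the largest fold change (3.34), and for Gzmf that at its start site. No Tprog point overlaps a Tterm point, and the Ttran points lie between them or close to Tterm in most panels.

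Genes of cytotoxic granules, cytokines and chemokines leaned the other way. Of 105 peaks assigned to 13 genes, 56 were higher in Tterm and 11 higher in Tprog, with a median log2 fold change of -0.49. These are 53.3% and 10.5%, against 12.6% and 13.9% of all peaks. Ifng, the gene of interferon gamma, had 17 of 27 peaks higher in Tterm. Gzmb, a granule protease, had 8 of 9, Prf1, the pore-forming perforin, 5 of 6, and the chemokine genes Ccl3, Ccl4 and Ccl5 had 3 of 3, 5 of 5 and 5 of 7. Il10, an inhibitory cytokine, had 6 of 10. None of these 7 genes had a peak called higher in Tprog.

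The Gzmb start-site peak, chr14:56261701-56263110, read 680 and 611 normalized reads in Tprog and 1113, 1094 and 1043 in Tterm. The values did not overlap (-0.75 on the log2 scale, SE 0.09, adjusted p = 1.76e-11). The 2 peaks of Gzmc were both higher in Tterm, and its start-site peak, chr14:56234361-56235285, read 45.8 and 65.9 against 145, 127 and 161 (log2 fold change -1.37, SE 0.28). At the Gzmf start site, chr14:56210967-56211902, the readings were 5.01 and 7.70 in Tprog and 117, 96.7 and 105 in Tterm. Gzmf was nearly closed in Tprog by this measure (log2 fold change -3.88, SE 0.47, adjusted p = 7.30e-11).

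Il2, the growth factor of T cells, went against the rest of its list. All 6 of its peaks were higher in Tprog, with log2 fold changes from 0.57 to 1.74. The strongest, chr3:37172987-37175105, lies 47033 bp outside the gene and read 729 and 594 in Tprog and 284, 237 and 294 in Tterm (1.28 on the log2 scale, SE 0.12, adjusted p = 1.31e-15). Il2 and the 2 called peaks each of Cx3cr1 and Fasl, with 1 of Tnf, made up the 11 peaks of the list that were higher in Tprog.

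Inhibitory receptors and ectoenzymes did not move as a group. Of 69 peaks of 10 genes, 20 were higher in Tterm and 11 higher in Tprog, with a median log2 fold change of -0.05. These are 29.0% and 15.9%, against 12.6% and 13.9% of all peaks. The 20 came from 4 genes: Havcr2 with 5 of 5 peaks, Entpd1 with 10 of 12, Cd244a, which encodes the receptor 2B4, with 3 of 4, and Ctla4 with 2 of 12. Pdcd1, the gene of PD-1, had 2 of 9 peaks higher in Tprog and none higher in Tterm. Its start-site peak read 2977 and 2990 in Tprog and 3184, 3187 and 3201 in Tterm, with no overlap but a difference too small to be called (log2 fold change -0.10, SE 0.05, adjusted p = 0.152). Lag3 and Tigit, 2 further checkpoint receptors, had 1 of 4 and 2 of 11 peaks higher in Tprog, and none higher in Tterm.

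The start-site peak of Havcr2, chr11:46452770-46455391, read 656 and 688 normalized reads in Tprog and 1339, 1303 and 1304 in Tterm (-0.97 on the log2 scale, SE 0.08, adjusted p = 2.36e-19). The other 4 Havcr2 peaks changed by -0.43 to -1.01. The weakest of them, chr11:46488013-46488695, read 22.9 and 23.1 against 50.6, 47.2 and 44.4 and had an adjusted p of 0.049, which rose above the threshold when any of the 5 libraries was left out. Entpd1 encodes CD39, an enzyme that breaks down extracellular ATP. Its start-site peak, chr19:40659633-40662398, read 421 and 340 in Tprog and 846, 821 and 891 in Tterm (-1.17 on the log2 scale, SE 0.11, adjusted p = 6.76e-16). Cd244a read 79.5 and 81.3 against 274, 252 and 200 at chr1:171559903-171561514.

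Among the transcription factors of exhaustion and effector function, 68 of 297 peaks were higher in Tterm and 38 higher in Tprog (median log2 fold change -0.12). These are 22.9% and 12.8%, against 12.6% and 13.9% of all peaks, so the Tprog share lay near that of all peaks. Genes with calls in the Tterm direction alone were Id2, Prdm1, Irf8, Rbpj, Maf and Tbx21. Id2, which opposes E proteins, had 6 of 9 peaks, and Prdm1, which encodes the repressor Blimp-1, had 11 of 22. Irf8, an interferon regulatory factor, had 9 of 18 and Rbpj, the nuclear partner of Notch, 9 of 33. Maf had 1 of 6 and Tbx21, which encodes T-bet, 1 of 9. Zeb2, a transcriptional repressor, had 9 of 21 higher in Tterm and 1 higher in Tprog.

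The strongest peak of Irf8, chr8:120715184-120717074, read 1461 and 1293 in Tprog and 1968, 1930 and 1909 in Tterm. The libraries of the states did not overlap (log2 fold change -0.49, SE 0.07, adjusted p = 1.92e-09). Nr4a1, an orphan nuclear receptor induced by antigen receptor signals, had 6 of 6 peaks higher in Tprog. Its start-site peak read 1371 and 1269 against 1100, 1050 and 1043 (log2 fold change 0.31, SE 0.08, adjusted p = 0.000865), with an adjusted p of 0.0526 without the first Tprog library.

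Some loci of this list held sites that moved in opposite directions. Tox, a factor of the exhausted programme, had 5 peaks higher in Tprog and 1 higher in Tterm of 27, with called log2 fold changes from -1.24 to 3.81. The Tox peak with the highest mean over the series read 585 and 727 in Tprog and 650, 727 and 759 in Tterm, with overlapping values (adjusted p = 0.409). Ikzf3, which encodes Aiolos, had 2 peaks higher in Tprog and 3 higher in Tterm of 13, from -0.97 to 4.13. Runx3, a factor of the CD8 lineage, had 3 and 5 of 23. Eomes had 2 of 14 peaks higher in Tprog and 1 higher in Tterm, and its start-site peak read 453 and 554 against 598, 598 and 593 (adjusted p = 0.0684).

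**Figure D3:**
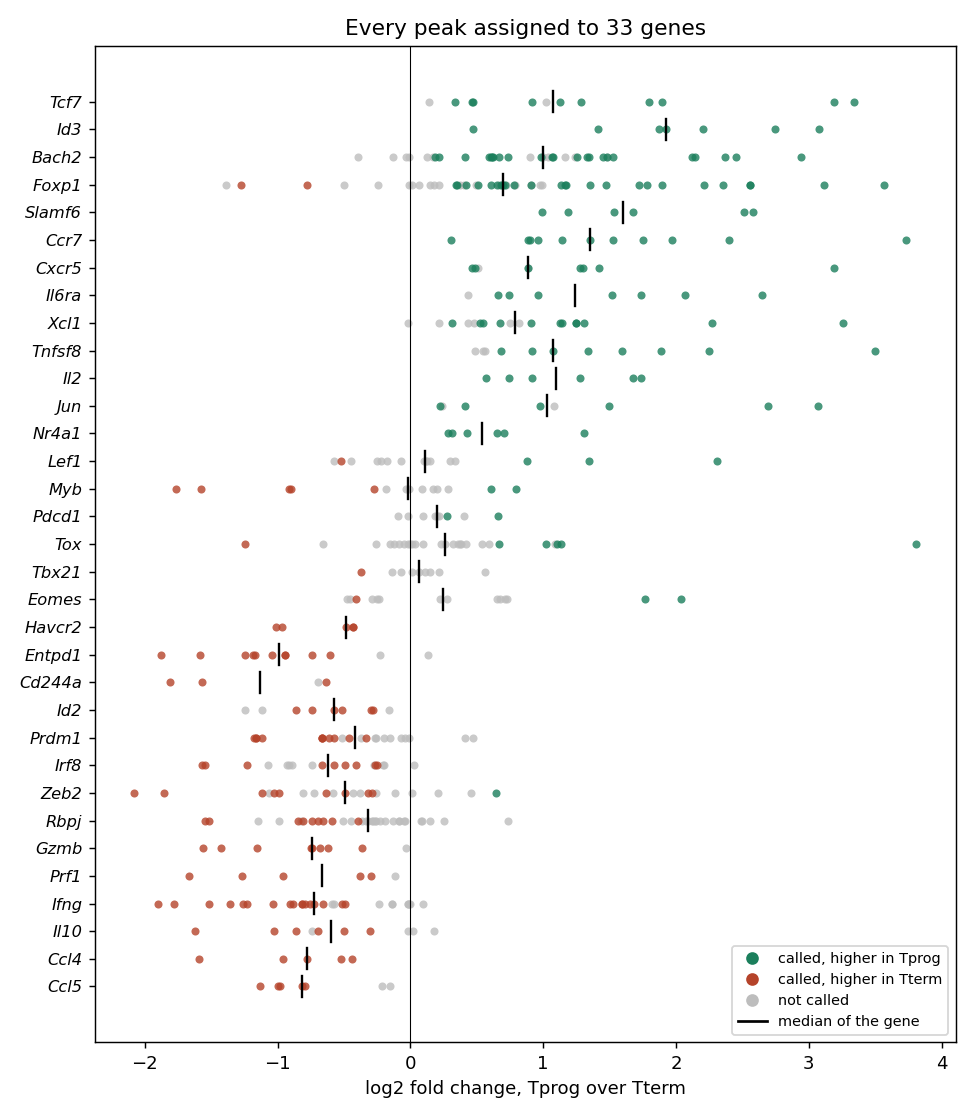
Log2 fold change of Tprog over Tterm for every peak assigned to 33 genes, with called peaks in green (higher in Tprog) or red (higher in Tterm), other peaks in grey and the gene's median as a black line. All peaks of Slamf6, Id3, Ccr7, Il2 and Nr4a1 are green and all peaks of Havcr2 and Ccl4 are red, while Myb, Tox and Lef1 hold both colours.

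Among smaller lists, AP-1 and TNF superfamily genes leaned to Tprog. Of 64 peaks of AP-1 family genes, whose proteins pair to drive responses to antigen, 19 were higher in Tprog and 2 higher in Tterm. These are 29.7% and 3.1%, against 13.9% and 12.6% of all peaks. Jun had 6 of 8 peaks higher in Tprog, with called log2 fold changes from 0.22 to 3.07. The start-site peak of Junb read 2592 and 2819 in Tprog and 2199, 2226 and 2200 in Tterm (0.29 on the log2 scale, SE 0.05, adjusted p = 1.18e-05), while that of Jund read 2160 and 2299 against 2533, 2489 and 2592 (-0.19, SE 0.06, adjusted p = 0.00831, or 0.172 without the first Tprog library). Of 38 peaks of costimulatory TNF superfamily genes, 11 (28.9%) were higher in Tprog and none was higher in Tterm, with 3 of 3 at Tnfsf14, which encodes LIGHT.

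Tissue homing receptors and integrins were mixed by gene, with 19 of 74 peaks higher in Tprog and 9 higher in Tterm. These are 25.7% and 12.2%, against 13.9% and 12.6% of all peaks, so the Tterm share lay near that of all peaks. The integrin chain Itgb1 had 10 of 18 peaks higher in Tprog and Cxcr4 had 5 of 12. The Tterm calls included peaks of the chemokine receptors Ccr2 (2 of 5) and Cxcr6 (1 of 1) and of the integrin chains Itgae (2 of 7) and Itga1 (1 of 12). The single Cxcr6 peak read 91.0 and 71.0 in Tprog and 173, 116 and 155 in Tterm (-0.85 on the log2 scale, SE 0.24, adjusted p = 0.00437), and without the second Tprog library its adjusted p was 0.117.

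Of 76 peaks of T cell identity genes, 18 were higher in Tprog (23.7%) and 9 higher in Tterm (11.8%), against 13.9% and 12.6% of all peaks. Of 15 peaks of housekeeping genes 1 was higher in Tprog. Among markers of other cells, Cd79a and Ms4a1 of B cells, Csf1r, Lyz2 and Adgre1 of myeloid cells, Foxp3 of regulatory T cells and Tyr and Dct of melanoma cells had no assigned peak. The B cell list was left with 5 peaks of Pax5, which summed to 516 to 589 normalized reads in Tprog and 280 to 309 in Tterm, 3 of them higher in Tprog and 1 higher in Tterm. Peaks of 3 of 6 myeloid genes summed to 2203 to 2221 in Tprog and 1991 to 2108 in Tterm, and those of both NK genes to 2700 to 2772 and 2247 to 2422. Peaks of 2 of 3 CD4 genes summed to 1290 to 1472 in Tprog and 1714 to 1760 in Tterm, and those of 4 of 6 melanoma genes to 3724 to 3757 and 3069 to 3225. Most of the melanoma sum came from Pmel, with 2949 to 2960 in Tprog and 2327 to 2422 in Tterm. The strongest Pmel peak overlapped the start site of another gene, Rab5b, so this sum does not measure melanoma genes alone. The part of such cells in the differences was not tested.

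Some loci held many called peaks. On the Tprog side those with the most were Foxp1 (25 of 46 peaks), Bach2 (23 of 35), Rad51b (21 of 43), Inpp4b (19 of 41), Asap1 (18 of 30), Nrp1 (16 of 33), Arhgef3 (16 of 36), Rora (15 of 30), Bcl2 (14 of 23) and Dapl1 (13 of 14). The 25 Foxp1 peaks spread over 547 kb and the 13 Dapl1 peaks over 96.8 kb. Dapl1 had the largest median of these genes, 2.25 on the log2 scale over its 14 peaks. On the Tterm side those with the most included Rgs3 (18 of 31), Ifng (17 of 27), Cdk6 (13 of 23), Dock10 (13 of 28), Filip1 (12 of 24), Zmiz1 (12 of 37), Atxn1 (12 of 55, beside 6 higher in Tprog), Myo10 (11 of 21) and Snx29 (11 of 21). Long genes hold more peaks, so counts per locus are not comparable between genes.

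Asap1, which encodes a regulator of ARF GTPases, illustrates a strong site in such a locus. Its strongest called peak, chr15:64210645-64213311, read 885 and 818 normalized reads in Tprog and 262, 253 and 286 in Tterm (1.67 on the log2 scale, SE 0.11, adjusted p = 1.29e-23). Bcl2, which protects cells from apoptosis, read 671 and 675 against 325, 359 and 333 at chr1:106569260-106570775 (0.99, SE 0.10).

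Many of the largest differences were at sites with few reads in the other state. Differences were ranked among called peaks over a gene body with a mean of at least 50 normalized reads and no overlap between the states. At most 1 peak was taken for a gene. The 10 largest in the Tprog direction lay in Unc80, Pter, Bicra, Slc6a19, Rbm33, Gypc, Ift80, Pitpnm2, Lpp and Dapl1. The Unc80 peak, chr1:66552411-66553074, read 158 and 147 in Tprog and 1.26, 0 and 3.37 in Tterm (6.16 on the log2 scale, SE 0.60, adjusted p = 1.41e-14). The Gypc peak, at chr18:32542764-32543707, was the strongest of the 10, with 511 and 507 in Tprog and 27.8, 21.2 and 19.7 in Tterm (4.43, SE 0.29). The Dapl1 peak read 136 and 138 against 10.7, 7.08 and 5.62 at chr2:59489870-59490455 (4.01, SE 0.45).

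In the Tterm direction the 10 largest lay in Hdac8, Gzmf, B4galnt2, Pecam1, Sytl2, Ttc28, Klhl30, Pbx4, Fancc and Wscd2. Not all were nearly closed in Tprog: the Klhl30 and Fancc peaks kept means of 43.6 and 37.3 normalized reads. The Hdac8 peak, in the body of a histone deacetylase gene at chrX:102382987-102384218, read 4.30 and 4.28 in Tprog and 89.1, 75.5 and 80.4 in Tterm (-3.96 on the log2 scale, SE 0.35, adjusted p = 6.51e-17). B4galnt2, a glycosyltransferase gene, read 17.2 and 19.7 against 159, 188 and 181 at chr11:95905943-95906443 (-3.19, SE 0.35). Pecam1, which encodes CD31, read 12.9 and 12 against 119, 73.9 and 137 at chr11:106707822-106708428 (-3.00, SE 0.31). Gzmf was the only start-site peak among these 20. Without the second Tprog library the Pbx4 peak was no longer called (adjusted p = 0.0568). All 20 peaks were called in the same direction in aged OTC, young Zfp219 and young Dusp5 libraries. Their log2 fold changes there had sizes of 1.03 to 4.72, 1.25 to 5.52 and 1.28 to 5.70. These calls share the estimate of the spread with the young OTC calls.

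Position in the genome went with the direction of change, and so did the level of the peak. Of 10251 peaks that overlapped a RefSeq start-site window, 8.82% were higher in Tprog and 16% higher in Tterm. Inside gene bodies 14.4% of 25024 peaks were higher in Tprog and 12.1% higher in Tterm, and outside genes 16.1% and 11.4% of 18483. The start-site excess in Tterm consisted of small differences: at least 4-fold differences were called at 34 start-site peaks in the Tprog direction and 11 in the Tterm direction, against 621 and 223 in gene bodies and 538 and 182 outside genes.

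**Figure D4:**
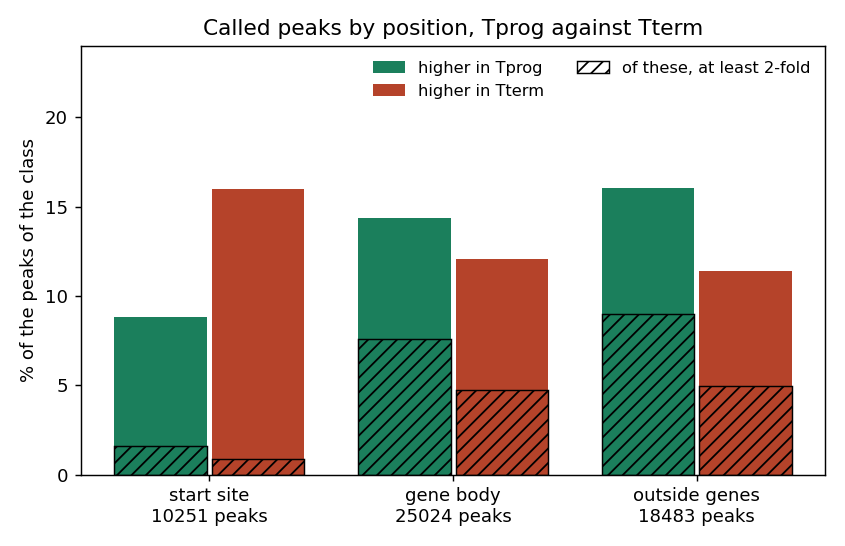
Bars give the percentage of the peaks of each position class called higher in Tprog (green) or higher in Tterm (red), and hatching the part that differed at least 2-fold. At start sites the red bar (16%) is taller than the green bar (8.82%), and in the other 2 classes the green bar is taller.

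Start-site peaks held 40.7% and 40.9% of the normalized reads of the 2 Tprog libraries and 42.1% to 42.4% of those of the 3 Tterm libraries. The share of reads at start sites thus moved with the state, and its part in the start-site calls was not tested. In aged hosts the shares were 41.0% and 41.2% in Tprog and 41.5% and 41.1% in Tterm. After quantile normalization 6862 peaks were higher in Tprog and 7105 higher in Tterm.

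The letters before start sites differed between the called sets. Of 1211 windows whose peak was higher in Tprog, 3.72% held the TCF/LEF letters CTTTGAT on either strand, against 1.48% of 2303 windows whose peak was higher in Tterm and 2.09% of 10160 windows whose peak was not called. RUNX letters (TGTGGTT) were in 5.62% of the Tprog windows, 2.87% of the Tterm windows and 3.46% of the windows not called. ETS letters (CCGGAAG) were in 6.94%, 15.9% and 14.2% of the same sets, so the Tterm share lay near that of windows not called and the Tprog share below it. AP-1 letters (TGANTCA) were in 6.69%, 4.86% and 3.95%. NFAT letters (TGGAAAA) were in 5.29%, 3.34% and 4.14%, and E-box letters (CAGCTG) in 12.9%, 9.77% and 11.45%. T-box letters (AGGTGTGA) were in 1.40%, 0.69% and 0.74%, and NR4A letters (AAAGGTCA) in 1.40%, 0.87% and 0.77%. KLF/SP letters (GGGCGGG) were in 36.9%, 46.1% and 43.65%. All letters scanned except ETS and KLF/SP were thus most frequent in the Tprog windows, so this lean was not particular to TCF/LEF or RUNX. Over all 32851 windows of that length, with or without a peak, the shares were 3.21% for TCF/LEF, 4.40% for RUNX, 6.91% for ETS and 6.75% for AP-1 letters. Median GC content was 57.2% in the Tprog windows, 64.8% in the Tterm windows and 52.4% in all windows, and its part in these shares was not tested. Peaks away from start sites could not be read, as no genome was used here.

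Ttran cells, which carry both sorting proteins, gave median values between the states and nearer to Tterm. At the 3751 peaks at least 2-fold higher in Tprog, the median peak had 85.0 normalized reads in Tprog, 38.2 in Ttran and 26.4 in Tterm. At the 2187 peaks at least 2-fold higher in Tterm, the medians were 28, 64.2 and 76.9. These peaks were chosen by the Tprog and Tterm libraries, so only the Ttran values are free of the choice. Against Tprog, 9098 peaks were called in Ttran (16.9%), and against Tterm 4515 (8.38%), where each comparison shares libraries with the main one.

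Single peaks differed in where Ttran lay. Ttran was sorted as positive for both Slamf6 and Tim-3, so its values at the genes of these proteins are not independent of the sort. At the Slamf6 peak chr1:171915612-171916427 Ttran read 302, 294 and 338 normalized reads, closer to Tprog than to Tterm, and its difference from Tterm was 1.24 on the log2 scale (adjusted p = 4.24e-13). At the start site of Havcr2 Ttran read 1223, 1279 and 1196, close to Tterm, with a difference from Tterm of -0.09 (adjusted p = 0.481). At the Tcf7 body peak chr11:52268178-52268844 Ttran read 61.4, 68.8 and 53.8, above all 3 Tterm values and far below Tprog. Gzmf read 43.3, 46.9 and 54.9 in Ttran, between states that did not overlap.

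The same contrast in libraries that did not enter the young OTC means called many of the same peaks. The estimate of the spread was shared between these contrasts, so their calls are not independent. In young Zfp219 libraries 14459 peaks were called (26.8%), 13.3% of all peaks higher in Tprog and 13.6% higher in Tterm. In young Dusp5 libraries the count was 16064 (29.8%), with 15.3% and 14.5%. Of the 7512 peaks higher in Tprog in young OTC, 5201 were also called so in Zfp219 (69.2% of the OTC calls and 72.7% of the Zfp219 calls) and 5596 in Dusp5 (74.5% and 67.8%). Of the 6767 higher in Tterm, 4359 were shared with Zfp219 (64.4% and 59.7%) and 4475 with Dusp5 (66.1% and 57.3%). Of the peaks higher in Tprog in OTC, 2 had the opposite call in Zfp219 and 3 in Dusp5, and of those higher in Tterm 1 and 2.

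Whether the Tprog against Tterm contrast itself differed between guides was tested at each peak, which leaves out any difference between guides that both states share. Between OTC and Zfp219 the test called 1 peak of 53868 (0.00186%), with 3051 at an unadjusted p under 0.05, and edgeR and DESeq2 on the recovered reads called 8 and 66. Leaving out single libraries gave 1 to 67. The 1 peak, named here after its value was seen, was a 45855 bp stretch on the unplaced scaffold Un_JH584304. It read 97906 ± 2183 (SD, n = 2) in OTC Tprog, 50633 ± 953 (SD, n = 3) in OTC Tterm, 142578 ± 4018 (n = 2) in Zfp219 Tprog and 55649 ± 1139 (n = 3) in Zfp219 Tterm. Read placement on such sequence is uncertain.

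Between OTC and Dusp5 the test called 5 peaks (0.00928%), with 3579 at an unadjusted p under 0.05, and edgeR and DESeq2 called 7 and 151. The 5, also named after their values were seen, lay at Pecam1, Litaf, Zfp791, Thy1 and Mid1. At the Pecam1 peak chr11:106702295-106703065 OTC read 45.1 ± 2.07 (SD, n = 2) in Tprog and 87.7 ± 13.5 (n = 3) in Tterm, while Dusp5 read 15.5 ± 0.120 and 152 ± 19.8. The difference of the log2 fold changes was 2.27 (SE 0.44, adjusted p = 0.0231), with the larger Tterm excess in Dusp5. Leaving out single libraries moved this count from 5 to between 0 and 66.

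In aged OTC libraries 10806 peaks were called (20.1%), 4783 higher in Tprog (8.88%) and 6023 higher in Tterm (11.2%). Peaks called higher in Tprog at both ages numbered 3351, which is 44.6% of the young calls and 70.1% of the aged calls. Those higher in Tterm at both ages numbered 3313 (49.0% and 55.0%). Opposite calls were made at 135 of the peaks higher in Tprog in young hosts and at 25 of those higher in Tterm. Peaks called the same way in aged OTC and in all 3 young guide groups numbered 2750 higher in Tprog and 2338 higher in Tterm.

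The size of the contrast differed between young and aged hosts at 1250 peaks (2.32%), by a test of the difference itself. At 974 of them (1.81% of all peaks) the log2 fold change was higher in young hosts, and at 276 (0.512%) it was lower. The 974 peaks were strong ones, with a median of 891 normalized reads against 93.1 over all peaks, and shifted little at either age: their median log2 fold change was 0.27 in young and -0.24 in aged hosts. The 276 had medians of -0.54 and 0.21. After quantile normalization 650 peaks were called, 346 in the first direction and 304 in the other, so the share of the first direction fell from 77.9% to 53.2%. The library names repeat the same sample numbers for each age, so age and a sample sheet or run that goes with it cannot be told apart.

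**Figure D5:**
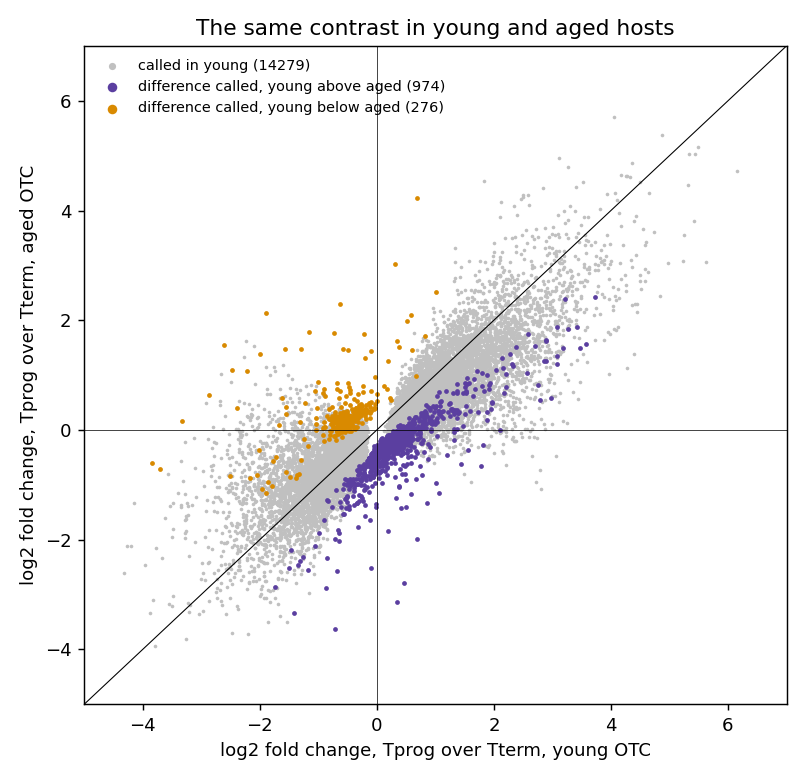
Log2 fold change of Tprog over Tterm in young OTC (horizontal) and aged OTC (vertical) for peaks called in young hosts (grey, 14279) and for peaks whose contrast differed between the ages, with the young value above (purple, 974) or below (orange, 276) the aged value. The black diagonal marks equal values, with the purple peaks below it and the orange peaks above it.

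Some peaks of progenitor genes were among them. At the Slamf6 peak chr1:171915612-171916427 the aged libraries read 545 ± 25.4 (SD, n = 2) in Tprog and 342 ± 34.2 (SD, n = 2) in Tterm, with a log2 fold change of 0.67 against 1.53 in young hosts (difference 0.86, adjusted p = 0.00698). At the Ccr7 peak described above they read 1270 ± 81.6 and 1094 ± 62.9, with 0.22 against 0.89 (difference 0.67, adjusted p = 0.000485). At that of Cxcr5 they read 1025 ± 35.8 and 645 ± 30.2, with 0.67 against 1.3 (difference 0.63, adjusted p = 0.00497). Mean values were higher in aged than in young hosts at all 3 peaks, in Tprog as well as in Tterm. The difference was called at 1 of 6 peaks of Slamf6, 6 of 11 of Ccr7 and 1 of 9 of Cxcr5. At the other 5 Slamf6 peaks it ran from -0.0040 to 1.26, with adjusted p from 0.554 to 0.997.

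The Runx3 start-site peak, chr4:135118721-135121521, turned over between the ages. Young libraries read 2630 and 2628 in Tprog and 2232, 2084 and 2291 in Tterm, and aged libraries 2177 ± 66.8 and 2849 ± 156 (SD, n = 2 each). The log2 fold change was 0.26 in young and -0.39 in aged hosts (difference 0.64, adjusted p = 1.49e-08), and after quantile normalization the young difference was 0.12 and no longer called (adjusted p = 0.102).

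Among the largest differences between the ages was a peak in the body of Foxp1. This peak, chr6:99309113-99309977, read 228 and 242 in young Tprog and 16.4, 22 and 18.6 in young Tterm, against 130 ± 20.6 and 43.0 ± 5.31 (SD, n = 2 each) in the aged states. Its log2 fold change was 3.57 in young and 1.57 in aged hosts (adjusted p of the difference 0.00311). Kcnip1 gave 142 and 174 against 14.5, 8.65 and 18 in young hosts and 385 ± 26.0 against 136 ± 0.253 in aged hosts. At Map3k5, chr10:20076901-20077681, young libraries read 15 and 10.3 in Tprog and 92.3, 65.3 and 89.4 in Tterm, while both aged states were low, at 11 ± 0.478 and 7.79 ± 11 (SD, n = 2 each).

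The Thy1 peak chr9:44046603-44047436, in the body of a T cell surface gene, followed neither state nor age alone. It read 403 and 326 in young OTC Tprog and 279, 262 and 248 in young OTC Tterm, and 129 ± 8.70 and 894 ± 91.5 (SD, n = 2 each) in aged OTC. Young Zfp219 means were 319 in Tprog and 439 in Tterm, and young Dusp5 means 585 and 212. Its log2 fold change was 0.46 in young OTC (adjusted p = 0.00429, or 0.196 without the first Tprog library), -2.79 in aged OTC, -0.47 in young Zfp219 and 1.46 in young Dusp5.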

How the data were processed

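ATAC-seq of sorted CD8 T cells was available as 1 deposited table of 53868 peaks in 48 libraries, in which the authors give a normalized signal for each peak and library. Reads were 50 bases long, per the labels' protocols. Per the submitters' processing notes reads were placed on mm10, and Bowtie2 2.2.9, Picard 2.8.0, MACS2 2.1.1, SAMtools 1.3.1 and DESeq2 1.28.1 are named with no role or order. How peaks were called, whether libraries were pooled for that, duplicates and any shift of insertion sites are not given in the sources used here. Dividing by the smallest step gave whole numbers for 100% of values in every library (tolerance 0.05 read), so the signal is reads divided by a size factor and whole reads were recovered. Over all libraries, reads in peaks ran from 5638413 to 29942755. No counting interval is given, since PCR copies are not independent molecules and it would cover counting error only. Between replicates the chi-square of reads per degree of freedom was 3.32 to 4.49, so none were repeats of 1 library.

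Groups and replicate numbers came from the library names. The labels say that mice were pooled into biological replicates, not which mice. The test was limma 3.58.1 (R 4.3.3; lmFit and eBayes with a trend) on log2(value + 1), fitted to the 48 libraries with 21 group means, Benjamini-Hochberg over all peaks and a threshold of 0.05. This scale understates changes of weak peaks. Differences between contrasts were tested as interaction contrasts of the same fit. The alternatives tried were quantile normalization, median-of-ratios rescaling, a pseudocount of 8, dropping the weakest 25% of peaks, the compared groups alone, edgeR 4.0.16 and DESeq2 1.42.0 on the recovered reads, a replicate block, and leaving out each library. The procedure was tested on simulated data.

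Peaks took the name of the overlapping protein-coding gene, and those outside genes the name of the nearest within 100 kb (51108 peaks had a gene), from the RefSeq table of GRCm38.p6, the build of the files. Coordinates are those of the deposited table. Exons and introns were not used here. Start-site peaks overlapped a RefSeq window of 300 bases around a start. The genes compared and the lists were chosen with earlier results of these data known. Named peaks were all peaks of Slamf6, Havcr2 and Tcf7, and for each listed gene the peak with the highest mean over the 48 libraries. The strongest called peak of the 10 genes with the most calls in each direction was added. So were the 10 largest called differences in each direction, and the 5 largest called differences between young and aged contrasts in each direction. These largest differences were ranked only among peaks over a gene body on an assembled chromosome, at most 1 for a gene. Such peaks also needed a mean of at least 50 normalized reads and no overlap between the states, both in the 5 young OTC libraries. Larger differences can therefore lie at other peaks. Some genes that the naming rule or the lists hold are not reported here.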

Additional observations from a re-analysis of the deposited data

Results flagged for a closer look

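Between young and aged hosts the Tprog against Tterm contrast differed at 1250 peaks when the interaction was tested with limma. Values below are the young minus the aged log2 fold change at peaks named by the rules in the methods, each called at an adjusted p under 0.05. Each value is that of 1 peak and not of the whole gene: the difference was called at 1 of 6 peaks of Slamf6, 1 of 9 of Cxcr5, 2 of 23 of Bcl2, 4 of 35 of Bach2, 1 of 22 of Prdm1, 5 of 23 of Runx3, 2 of 27 of Ifng and 1 of 46 of Foxp1, and at 6 of 11 of Ccr7. Among progenitor and survival genes the differences were 0.86 at Slamf6, 0.67 at Ccr7, 0.63 at Cxcr5, 0.60 at Bcl2, 0.54 at Tnfsf8, 0.44 at Xcl1, 0.44 at Rora and 0.36 at Bach2. Among effector genes, receptors and their regulators they were 0.65 at Prdm1, 0.64 at Runx3, 0.58 at Ccl3, 0.57 at Lag3, 0.40 at Ccl5, 0.39 at Ifng, 0.39 at Junb and 0.38 at Tigit. The largest among the named peaks were 3.25 at Thy1, 2.11 at Chst11, 2.00 at Foxp1, 1.99 at Kcnip1 and 1.91 at Glis1. In the other direction they were -4.17 at Map3k5, -1.87 at Ttc34, -1.84 at Ppm1n, -1.77 at Fam174b and -1.67 at Vps50.

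Between young OTC and young Zfp219 the contrast differed at 1 peak and between young OTC and young Dusp5 at 5 peaks. The report gives their values.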

How the results depend on the processing

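The 14279 called peaks became 14801 with a pseudocount of 8, 12952 without the weakest peaks, 14359 after rescaling, 13967 after quantile normalization, 17977 with the compared groups alone, 17952 with edgeR and 18121 with DESeq2, and 9518 to 12093 when a library was left out. The 1250 peaks that differed between young and aged hosts became 650 after quantile normalization, 2360 with the compared groups alone, 2657 with edgeR, 3141 with DESeq2 and 662 to 986 without single libraries. The 1 peak of the Zfp219 difference became 2 with a pseudocount of 8, 2 without the weakest peaks, 3 after quantile normalization, 8 with edgeR, 66 with DESeq2 and 1 to 67 without single libraries. The 5 peaks of the Dusp5 difference became 10 without the weakest peaks, 21 with the compared groups alone, 151 with DESeq2 and 0 to 66 without single libraries. The cause of these shifts was not tested, beyond the fewer libraries in some fits. Same-numbered libraries of young OTC correlated between -0.01 and 0.01 in their deviations. This cannot settle whether the numbers pair them: the 2 Tprog libraries deviate by equal and opposite amounts, and weak peaks were included. With a replicate block the counts were 13003, 1017, 1 and 2.

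No named peak changed its direction while called. Of 104 called peaks named, 104 kept their call with a pseudocount of 8, rescaling, the compared groups alone, edgeR and DESeq2, 100 with quantile normalization and with the block, and 89 to 100 without single libraries. With 2 Tprog libraries, small changes of weak peaks were not detectable: of the 13467 weakest peaks 13.8% were called, against 34.8% of the 13467 strongest.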

Other observations

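Chromosome X leaned to Tprog. Of its 1213 peaks, 12.6% were higher in Tprog and 3.71% higher in Tterm, against 13.9% and 12.8% on the autosomes, and the median log2 fold change was 0.12 on chromosome X and 0.00 on the autosomes. The same lean was measured in the other contrasts, with chromosome X medians of 0.12 in aged OTC, 0.12 in young Zfp219 and 0.14 in young Dusp5, and 2.89% to 4.70% of its peaks higher in Tterm. Peaks of chromosome X held 1.63% of the normalized reads of each young OTC Tprog library and 1.53% to 1.55% of those of the Tterm libraries. The libraries of the states did not overlap in this share.

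Peaks on unplaced scaffolds leaned the same way. Of 110 such peaks 44 were higher in Tprog and none was called higher in Tterm, by limma. They held 1.06% and 1.09% of the normalized reads of the Tprog libraries, 0.959% to 0.993% in Ttran and 0.582% to 0.597% in Tterm. Read placement on such sequence is uncertain.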
